A study of Mus musculus with 46 samples.

Results

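The genes described here are 38 mouse genes of fatty acid oxidation and targets of the nuclear receptor PPAR alpha, out of 55487 genes listed in each library. They were taken by symbol from a list of enzymes, carriers and regulators of the pathway. The list was chosen with earlier results of these data known. All 38 were found, each at 1 identifier. RNA was sequenced from mouse islets and livers with defects in genes of mitochondrial upkeep, in a study whose title concerns signals from mitochondria and the identity of metabolic tissues. Islets labelled Tfam control came from 5 females and 3 males, and islets labelled Tfam KO from 4 females and 2 males. Islets labelled Clec16a control numbered 4 on the diet called RFD and 6 on the diet called HFD, and islets labelled Clec16a KO numbered 4 on RFD and 5 on HFD. Livers comprised 6 labelled control, 4 labelled Mfn DKO and 3 labelled Tfam KO, and the descriptions of all 13 carry the letters AAV. The titles call the libraries of a group biological replicates. The labels do not write out the diets or AAV. They do not give strain, age, the way each gene was deleted or, outside the Tfam islets, the sex of each animal. Islets had spent a night in culture before lysis and livers had been frozen.

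In fatty acid oxidation, a fatty acid is taken up, joined to coenzyme A, carried into mitochondria on carnitine and shortened in repeated cycles by dehydrogenases, hydratases and thiolases. Electrons from the first step of each cycle pass through the electron transferring flavoprotein to the respiratory chain, which Tfam serves by keeping and transcribing mitochondrial DNA. Very long and branched chains are shortened in peroxisomes, and microsomal enzymes of the Cyp4a family oxidise the far end of the chain. In the fasting liver PPAR alpha raises many of these genes and the products feed ketone bodies. Mature beta cells are known for keeping little of this pathway apart from Hadh, whose loss in people causes inappropriate insulin secretion.

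Total counts per library were 55223041 to 83342809 in the Tfam islets, 16235173 to 55810879 in the Clec16a islets and 41961114 to 56894510 in the livers. Levels between samples are given as CPM, counts scaled to a common library total, on library sizes adjusted by the trimmed mean of M values. Tfam stood at 16.0 to 18.9 CPM in Tfam KO islets and at 37.8 CPM or more in their controls, and at 13.1 to 15.9 CPM in Tfam KO livers against 54.2 CPM or more in control livers. Mfn1 was 15.6 to 25.4 CPM in Mfn DKO livers against 67.8 CPM or more in controls, and Mfn2 was 32.3 to 45.1 CPM against 113 CPM or more. Clec16a RNA stood at 23.4 to 32.9 CPM in the libraries labelled Clec16a KO and at 20.9 to 31.8 CPM in their controls, which is no lower, so directions for that experiment are directions between libraries as labelled. The Y-linked transcript Ddx3y exceeded 1 CPM in 3 of 6 control, 2 of 4 Mfn DKO and 1 of 3 Tfam KO livers and in none of the 19 Clec16a islets. Liver Tfam KO replicate 2 stood apart: it held the lowest value of all 13 livers for 13 of the 38 genes and the highest for 9. Mfn DKO replicate 2 held the lowest value for 14.

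The pathway was first placed in the 2 tissues. Levels per length of transcript are the authors' TPM, compared between 18 control islet and 6 control liver libraries as a description, since tissue, handling and experiment cannot be told apart. For 34 of the 38 genes every control liver lay above every control islet library. The islet ranking was led by Hadh, the mitochondrial short-chain hydroxyacyl-CoA dehydrogenase, with a median of 324 TPM (258 to 390), a range that overlapped that of the livers (median 237 TPM, 190 to 271). Etfa, a subunit of the electron transferring flavoprotein, came next in islets at a median of 72.3 TPM. Acat1, a mitochondrial acetoacetyl-CoA thiolase, followed at 59.9 TPM, and the ranges of Etfa (39.4 to 99.5 TPM) and Acat1 (51.8 to 76.5 TPM) overlapped. Fabp1, the liver fatty acid binding protein, led in the livers at a median of 19600 TPM and had an islet median of 0, where the highest islet library held 122 TPM. Acaa1b, a peroxisomal thiolase, had medians of 1120 TPM in livers and 0.194 TPM in islets. Ppara itself, the gene of the receptor, had medians of 83 TPM in livers and 0.244 TPM in islets. Only Pdk4, a kinase that shuts off pyruvate dehydrogenase, lay higher in every control islet library (10.1 to 52.7 TPM) than in every control liver (1.64 to 7.55 TPM). Cpt1a, which makes acylcarnitine at the outer membrane, had medians of 149 TPM in livers and 17.6 TPM in islets, and its muscle form Cpt1b stayed below 0.41 TPM in all control libraries of both tissues. Of the 151-base windows of Cpt1b 89.1% are shared with Gm44502, so its reads could be split between the 2 models or dropped. The transcripts of Cyp4a14 and Cyp4a31 were not detected in any control islet library, a count of 0 that allows up to 3 counts in each.

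**Figure D1:**
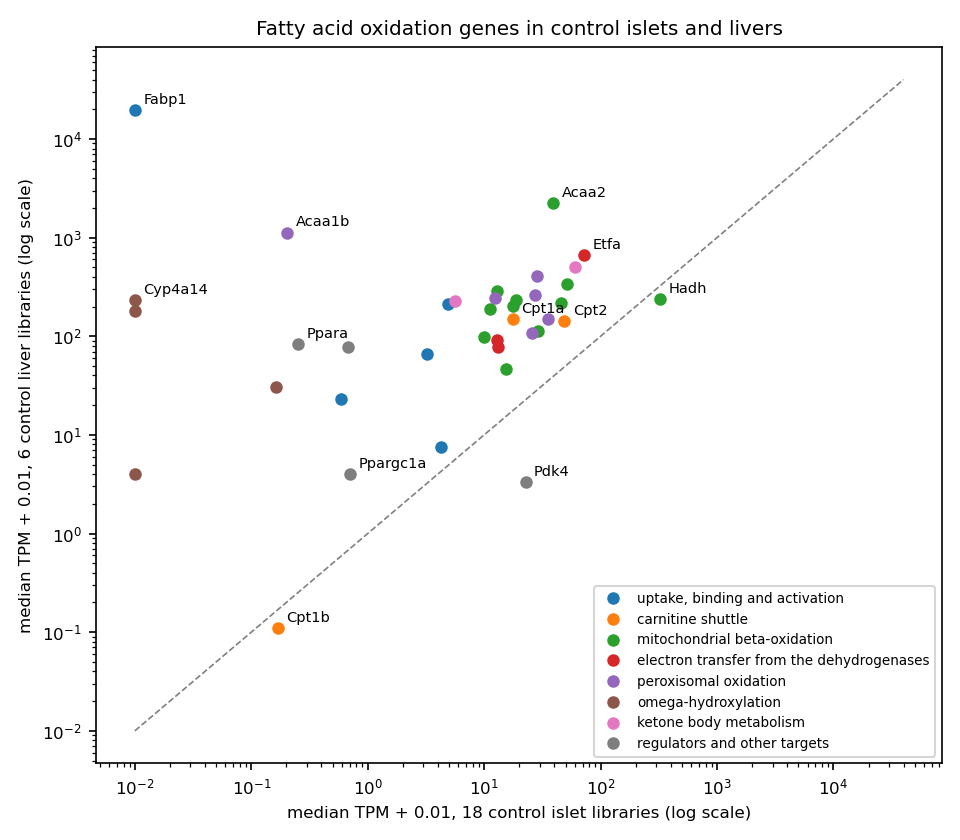
Median TPM of the 38 genes in 18 control islet libraries (x axis) and 6 control liver libraries (y axis), both on log scales after adding 0.01, coloured by role, with a dashed line of equal levels. Hadh, Pdk4 and Cpt1b lie below the line, and Fabp1 stands at 19600 TPM in livers with an islet median of 0.

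Promoters are shown for the 2 genes whose sequence held a searched motif, to set the receptor's known recognition element and a stress element beside the measured changes. RefSeq (GRCm38.p6) gave 31 promoters, each of 250 bases before and 50 after the start, for 29 of the 38 genes. PPAR alpha with its partner RXR is known to bind 2 half-sites AGGTCA in direct repeat with 1 base between them. Searched on both strands, this repeat was in 13 of 32851 promoters (0.0396%) and in none of the 31. Relaxed to AGGNCA in both half-sites, which includes the first form, it was in 125 promoters (0.381%), among them that of Fabp1, on the antisense strand 67 to 55 bases before the RefSeq start. The letters TGATGCAAT, a form of the element bound by ATF4 with C/EBP partners, were in 63 promoters (0.192%), among them that of Echs1, a mitochondrial enoyl-CoA hydratase, 164 to 156 bases before the start. Both are printed along the gene's own strand, with the match in capitals and the rest in lower case, ending where the GENCODE M21 gene model begins. Fabp1 is from chr6:71199629-71199826 (plus strand) and Echs1 from chr7:140116477-140116671 (minus strand). A match is a run of letters and not a measured binding site.
Fabp1: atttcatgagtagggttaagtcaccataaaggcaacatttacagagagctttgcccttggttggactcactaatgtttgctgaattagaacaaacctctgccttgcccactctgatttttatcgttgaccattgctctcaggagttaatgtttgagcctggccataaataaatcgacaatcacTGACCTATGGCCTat
Echs1: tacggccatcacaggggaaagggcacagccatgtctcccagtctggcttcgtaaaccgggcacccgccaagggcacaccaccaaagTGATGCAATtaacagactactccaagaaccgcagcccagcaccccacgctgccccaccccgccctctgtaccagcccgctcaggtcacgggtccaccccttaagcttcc

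In livers labelled Mfn DKO, the thiolases Acaa2, Acaa1a and Acaa1b, the isomerases Eci1 and Eci2, the reductases Decr1 and Decr2, and Fabp1 fell. Of the 38 genes, all tested, 8 were lower and 2 higher at an adjusted p of 0.05 or less by edgeR's quasi-likelihood test, adjusted over all genes. Over all 17024 genes tested, 4.64% were called lower and 5.23% higher. The median log2 fold change of the 38 was -0.31, against 0.02 over all genes. The number called differed with the libraries in the fit: it was 22 (18 lower, 4 higher) when the Tfam KO livers were left out of the fit, 19 without Tfam KO replicate 2 alone, and 3 without Mfn DKO replicate 1 or replicate 2.

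Fabp1 (ENSMUSG00000054422, chromosome 6, 71199827 to 71205023, plus strand, GRCm38), which ferries fatty acids in the hepatocyte cytosol, ranged from 3440 to 6890 CPM with a median of 5240 in the 6 controls. In the Mfn DKO livers it was 1555, 1469, 1735 and 1837 CPM. No Mfn DKO value reached the lowest control. Its log2 fold change was -1.63 (SE 0.40, adjusted p 0.0258), or 32.3% of control. The call was lost without any 1 of the 4 Mfn DKO libraries, with adjusted p of up to 0.0806.

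Among the enzymes of the mitochondrial cycle, 3 of 11 fell. Acaa2, the thiolase that ends each turn, ranged from 1350 to 1690 CPM (median 1630) in controls and was 878, 747, 847 and 875 CPM in Mfn DKO livers (log2 fold change -0.92, SE 0.21, adjusted p 0.0171). Eci1 (chromosome 17, 24426641 to 24439348, plus strand), an isomerase for unsaturated chains, ranged from 180 to 261 CPM (median 229) in controls and was 111, 94.5, 121 and 128 CPM in Mfn DKO livers. The Eci1 groups did not overlap, and the log2 fold change was -0.99 (SE 0.14, adjusted p 0.00149). Decr1, a reductase for unsaturated chains, ranged from 280 to 384 CPM (median 341) in controls and was 249, 173, 264 and 241 CPM in Mfn DKO livers, again below all controls (log2 fold change -0.56, adjusted p 0.0296). The 4 acyl-CoA dehydrogenases that open the cycle were not called. Acadm ranged from 318 to 438 CPM against 454 to 586 CPM in controls (log2 fold change -0.45, adjusted p 0.0508). Acads ranged from 165 to 185 CPM against 203 to 242 CPM (log2 fold change -0.32, adjusted p 0.0598), so for both genes the groups did not overlap. Acadvl and Acadl gave -0.29 and -0.18, with adjusted p of 0.102 and 0.44. Hadhb, which encodes the beta subunit of the trifunctional protein, had a value of 0.00 (95% interval -0.35 to 0.36). Of its 151-base windows 43.5% are shared with Gm13910, so its reads could be split between these models or dropped.

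Peroxisomal enzymes fell in 4 of 6 cases. Acaa1a (chromosome 9, 119339676 to 119350299, plus strand), a peroxisomal thiolase, ranged from 274 to 382 CPM (median 309) in controls and was 164, 157, 164 and 157 CPM in Mfn DKO livers. These 4 values lay close together and all below the controls (log2 fold change -0.98, SE 0.12, adjusted p 0.00061). Its neighbour and near copy Acaa1b fell by 1.09 on the log2 scale (adjusted p 0.0456). Between these 2 genes 12.6% of the 151-base windows of Acaa1a are identical, so some reads could be assigned to either. Eci2, a peroxisomal isomerase, ranged from 228 to 320 CPM (median 289) in controls and was 185, 118, 185 and 194 CPM in Mfn DKO livers (log2 fold change -0.72, adjusted p 0.0258). Decr2, a peroxisomal reductase, fell by 0.73 (adjusted p 0.0303). Ehhadh, the peroxisomal bifunctional enzyme and a classical PPAR alpha target, gave -0.21 (95% interval -1 to 0.59). Among the lowered genes the calls of Acaa1a and Eci1 held in all 13 fits that left out 1 library, that of Acaa2 in 11, those of Eci2 and Fabp1 in 9, that of Decr1 in 8, that of Decr2 in 6 and that of Acaa1b in 3.

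The 2 genes that rose were Cyp4a31 and Ppargc1a. Cyp4a31 (chromosome 4, 115563649 to 115579015, plus strand), a fatty acid omega-hydroxylase, ranged from 1.54 to 11.3 CPM (median 4.6) in controls and was 44.6, 25.3, 82 and 51.1 CPM in Mfn DKO livers. Its log2 fold change was 3.27 (SE 0.65, adjusted p 0.00946), while Cyp4a10, Cyp4a14 and Cyp4a32 gave 0.05, 0.88 and -0.09 with adjusted p of 0.405 or more. Ppargc1a, a coactivator of PPAR alpha, ranged from 9.22 to 14.2 CPM (median 12.2) in controls and was 17.7, 23.4, 15.1 and 19.3 CPM in Mfn DKO livers (log2 fold change 0.66, SE 0.18, adjusted p 0.0397). The Ppargc1a call was lost in 7 of 13 fits that left out 1 library. Ppara itself gave -0.20 (95% interval -0.84 to 0.43). The 3 genes of the carnitine shuttle, the 3 of electron transfer and the ketone body genes Acat1 and Bdh1 were not called, with log2 fold changes from -0.68 (Acat1, adjusted p 0.0776) to -0.10 (Cpt1a).

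**Figure D2:**
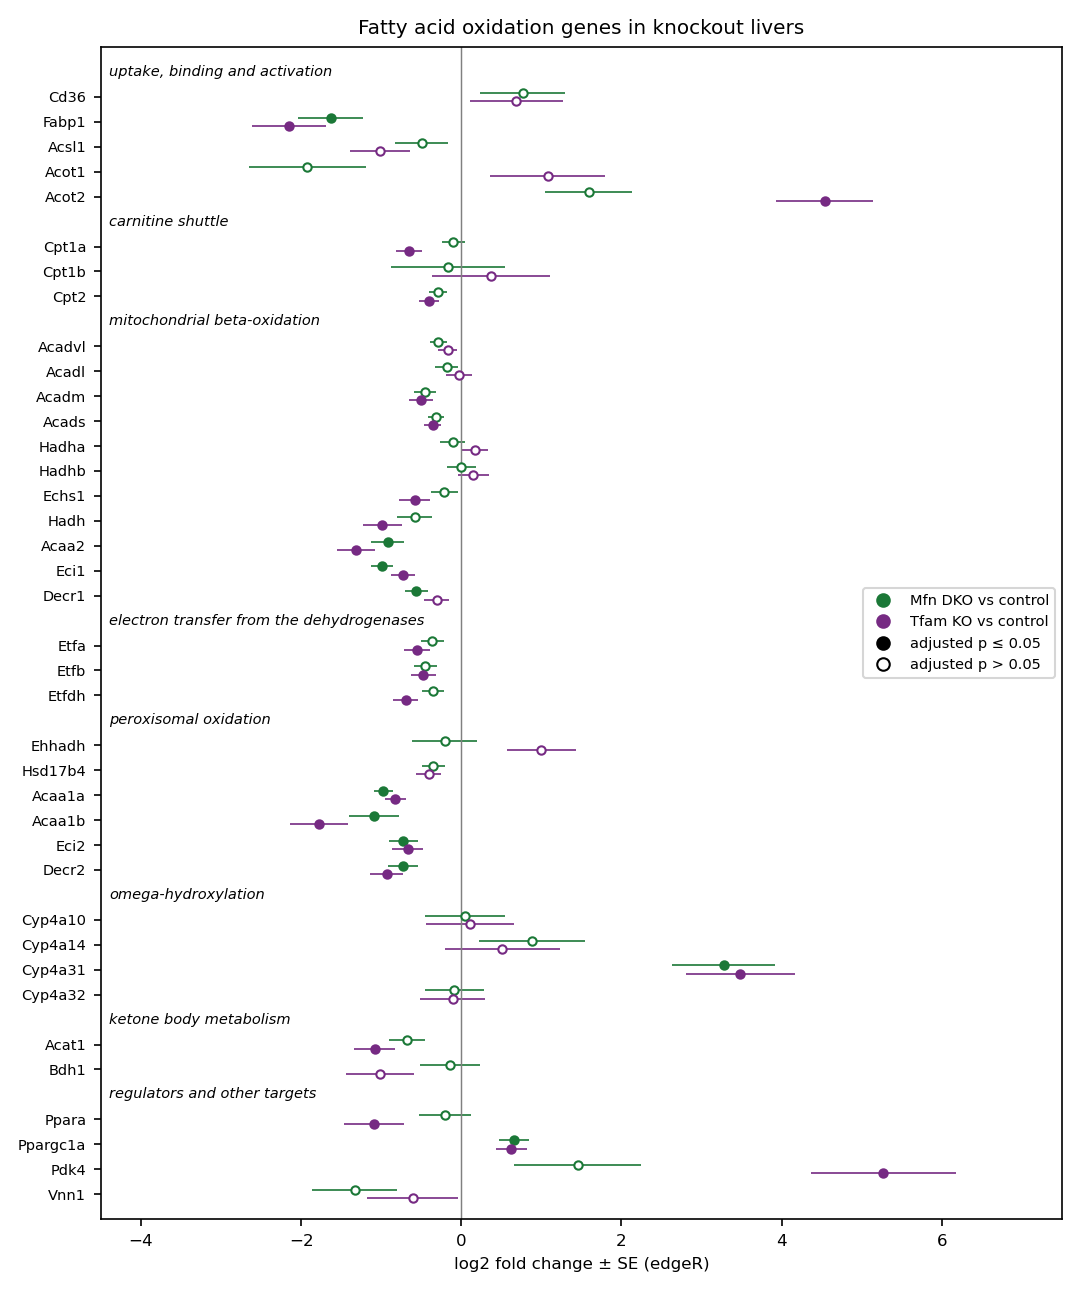
Log2 fold change with its standard error (x axis) of the 38 genes, grouped by role (y axis), in Mfn DKO livers (green) and Tfam KO livers (purple) against the same 6 control livers. Filled circles passed an adjusted p of 0.05, and Fabp1 is low and Cyp4a31 high in both comparisons.

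In livers labelled Tfam KO, genes of the carnitine shuttle, the mitochondrial cycle, electron transfer and peroxisomes fell, and Acot2, Pdk4, Cyp4a31 and Ppargc1a rose. Of the 38 genes, 18 were called lower and 4 higher, against 11.3% of all genes lower and 18.1% higher. The median log2 fold change of the 38 was -0.44, against 0.03 over all genes. Without Tfam KO replicate 2 the count was 17, with 13 lower and 4 higher.

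Of uptake and activation genes, Fabp1 was 836, 364 and 2251 CPM in the Tfam KO livers. All 3 values lay below the control range given above, with replicate 2 lowest and replicate 3 nearest the controls. The log2 fold change was -2.15 (SE 0.47, adjusted p 0.00594), or 22.5% of control. Acsl1, the main acyl-CoA synthetase of liver, gave -1.01 with an adjusted p of 0.055. Acot2 (chromosome 12, 83987861 to 83993873, plus strand), a mitochondrial thioesterase that frees fatty acids from coenzyme A, ranged from 5.47 to 11.7 CPM (median 7.97) in controls and was 102, 467 and 25.1 CPM in Tfam KO livers. Every Tfam KO value lay above every control, and the 3 differed among themselves by more than the whole control range. The log2 fold change was 4.54 (SE 0.61, adjusted p 0.00075), and 2.90 (adjusted p 0.00131) without replicate 2. Acot2 was 18.9, 19.4, 27.2 and 37.4 CPM in the Mfn DKO livers, also above all controls, but did not pass (log2 fold change 1.59, adjusted p 0.0802). The cytosolic thioesterase Acot1, which shares 9.71% of its 151-base windows with Acot2, was 9.76, 245 and 21.0 CPM in Tfam KO livers, values given after they were seen, so that 1 library lay far above and the other two below the control range of 24.1 to 66.3 CPM. Its log2 fold change of 1.08 had an adjusted p of 0.275.

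In the carnitine shuttle both Cpt1a and Cpt2, the enzymes of the outer and inner membrane, fell, by 0.65 (adjusted p 0.0105) and 0.41 (adjusted p 0.0284) on the log2 scale. Cpt1a ranged from 289 to 345 CPM, below all 6 controls at 380 to 569 CPM. The Cpt2 call was lost in 4 of 13 fits that left out 1 library.

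Of 11 enzymes of the mitochondrial cycle, 6 fell and none rose. Acaa2 was 594, 387 and 924 CPM in Tfam KO livers, all below the lowest control (log2 fold change -1.31, SE 0.23, adjusted p 0.00245). Eci1 was 114, 138 and 157 CPM, again below all controls (log2 fold change -0.73, adjusted p 0.00525). Hadh fell by 0.98 (adjusted p 0.0106), and Echs1, Acadm and Acads by 0.58, 0.51 and 0.36. Without Tfam KO replicate 1 the calls of Echs1, Acadm and Acads were lost, and without replicate 2 that of Echs1, at -0.34. In all, the Echs1 call held in 7 of 13 fits that left out 1 library, and those of Acadm and Acads in 12. The long-chain enzymes Acadvl, Acadl, Hadha and Hadhb were not called and had log2 fold changes between -0.17 and 0.17. The 3 genes that pass electrons on, Etfa, Etfb and Etfdh, all fell, by 0.55, 0.48 and 0.69, with adjusted p of 0.0215, 0.0368 and 0.00735. Etfa and Etfb no longer passed without Tfam KO replicate 1 or replicate 2, while without replicate 2 Etfdh kept -0.67 with an adjusted p of 0.0253. The Etfb call was also lost without control replicate 3, 4 or 6. Etfb shares 62.9% of its 151-base windows with Gm45233, so its reads could be split between the 2 models.

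Among peroxisomal enzymes 4 of 6 fell. Acaa1b (chromosome 9, 119148023 to 119157093, minus strand) ranged from 849 to 1410 CPM (median 1030) in controls and was 231, 175 and 530 CPM in Tfam KO livers. Its log2 fold change was -1.78 (SE 0.36, adjusted p 0.00437). Acaa1a was 157, 179 and 198 CPM and Decr2 was 146, 120 and 242 CPM, each below all controls (log2 fold changes -0.82 and -0.93, adjusted p 0.0015 and 0.00711). Ehhadh went the other way in 1 library: it was 236, 1405 and 296 CPM, again given after the values were seen, against 255 to 404 CPM in controls (log2 fold change 1.001, adjusted p 0.0933). Without replicate 2 it gave -0.28.

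Omega-hydroxylation was again represented by Cyp4a31 alone, at 25.3, 135 and 15.4 CPM in Tfam KO livers, all above the controls. The log2 fold change was 3.48 (SE 0.68, adjusted p 0.00358), and 1.959 (adjusted p 0.0378) without replicate 2. Cyp4a14 spread from 52.2 to 769 CPM among the controls alone. The 3 controls with Ddx3y above 1 CPM held 52.2, 123 and 129 CPM of it, and those without held 421, 471 and 769 CPM. Cyp4a31 was split in the same way among controls, at 1.54 to 3.31 CPM with Ddx3y and 5.9 to 11.3 CPM without. Of other genes called in Tfam KO livers, Acot2, Hadh, Acat1 and Ppargc1a were lower and Cpt2 higher in controls with Ddx3y, without overlap. Genes not called there were split too, among them Cd36 and Vnn1 (lower) and Acsl1 (higher). With 3 libraries on each side such a split can arise by chance, and its share over all genes was not counted. Acat1, which works in ketone body synthesis, fell by 1.08 (adjusted p 0.00918), to between 249 and 583 CPM. Bdh1, which makes hydroxybutyrate, ranged from 56.2 to 355 CPM against 358 to 623 CPM in controls (log2 fold change -1.02, adjusted p 0.0855).

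Of the regulators, Pdk4 (chromosome 6, 5483351 to 5496309, minus strand) ranged from 2.69 to 11.7 CPM (median 5.69) in controls and was 38.5, 661 and 21.9 CPM in Tfam KO livers. All 3 values were above the controls, and replicate 2 was far above the other two. The log2 fold change was 5.27 (SE 0.91, adjusted p 0.00216), and 2.27 (adjusted p 0.0194) without replicate 2. Ppargc1a was 15.9, 14.5 and 25.1 CPM (log2 fold change 0.63, adjusted p 0.0321), all above the controls. Without Tfam KO replicate 3 its value was 0.33 and the call was lost. Ppara (chromosome 15, 85734983 to 85802819, plus strand) ranged from 24.3 to 106 CPM against 88.1 to 187 CPM (median 145) in controls, and these ranges overlapped. The log2 fold change of -1.09 (SE 0.37, adjusted p 0.0426) lost its call in 11 of 13 fits that left out 1 library and was -0.69 without replicate 2. Vnn1, a pantetheinase and PPAR alpha target, gave -0.61 with an adjusted p of 0.443.

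**Figure D3:**
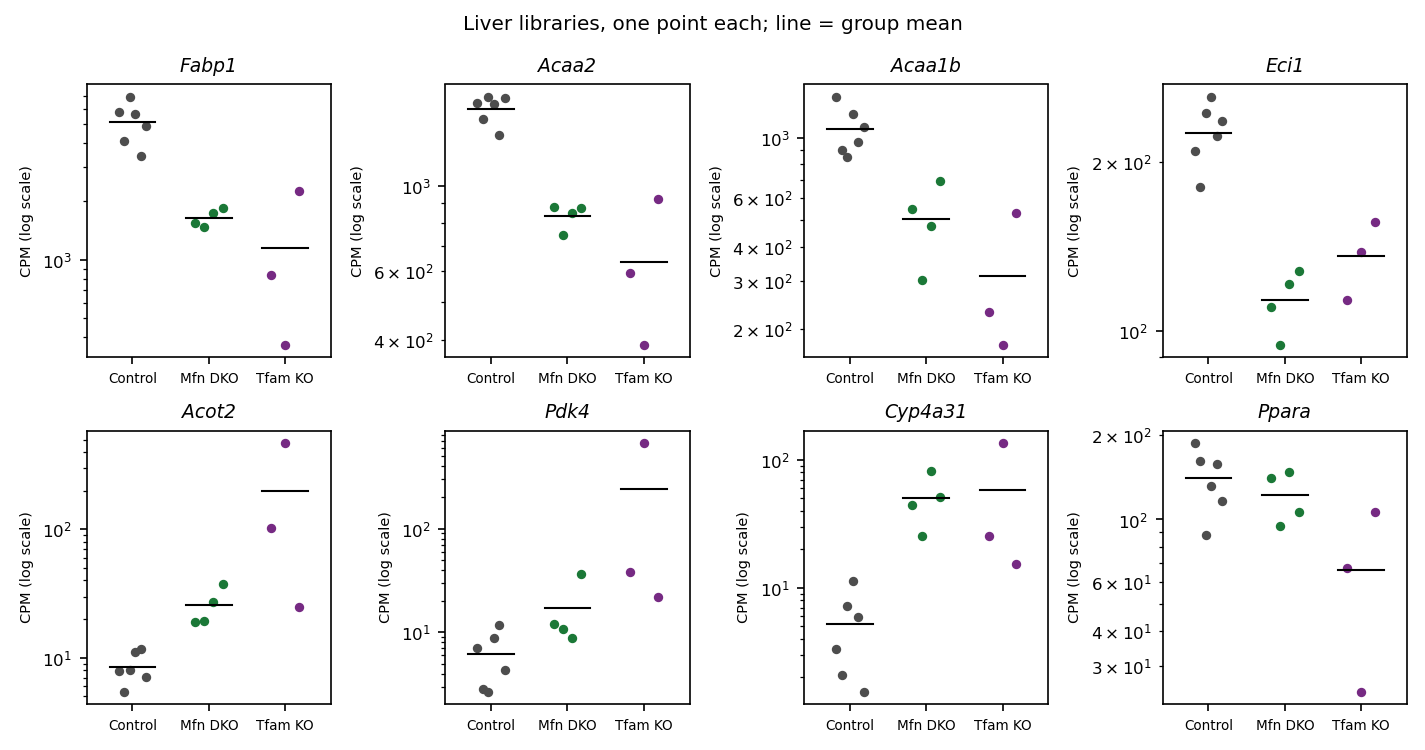
CPM on a log axis of 8 genes in each of 6 control, 4 Mfn DKO and 3 Tfam KO livers, with group means as lines. Fabp1, Acaa2, Acaa1b and Eci1 lie below every control in both knockouts, Acot2 and Cyp4a31 above, and Tfam KO replicate 2 is the extreme point for Pdk4 at 661 CPM.

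Markers of cell types and the sex-linked transcript Ddx3y were read beside these results. The summed level of 8 hepatocyte markers had medians of 107600 CPM (87470 to 132200) in controls, 85910 CPM (77130 to 98960) in Mfn DKO and 58820 CPM (23370 to 91320) in Tfam KO livers, lowest in Tfam KO replicate 2. Of these 8 markers 3 fell and none rose in Tfam KO livers, and none fell and 1 rose in Mfn DKO livers. In bulk tissue fewer hepatocytes and less RNA per hepatocyte cannot be told apart, and the part of this shift in the results was not tested. The summed level of 8 macrophage markers had medians of 626.5 CPM (466.9 to 856.7) in controls, 959 CPM (621.4 to 1355) in Mfn DKO and 419.6 CPM (328.9 to 868.2) in Tfam KO livers, where 1 and 2 of the 8 rose and none fell. For 6 stellate and fibroblast markers the sum was 207.4 to 283.2 CPM in controls, 278.1 to 331.1 CPM in Mfn DKO and 195.4 to 269.8 CPM in Tfam KO livers, and 1 of the 6 rose in each. The part of these shifts was not tested. With the presence of Ddx3y as a term, 11 genes were called in Mfn DKO and 22 in Tfam KO livers, and Ppara was no longer among the latter. Split by that transcript, all 10 genes called in Mfn DKO and all 22 called in Tfam KO kept their direction in both classes, where 1 class of Tfam KO held 1 library. The classes reuse the libraries that gave the calls, so this agreement is no independent evidence.

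**Figure D4:**
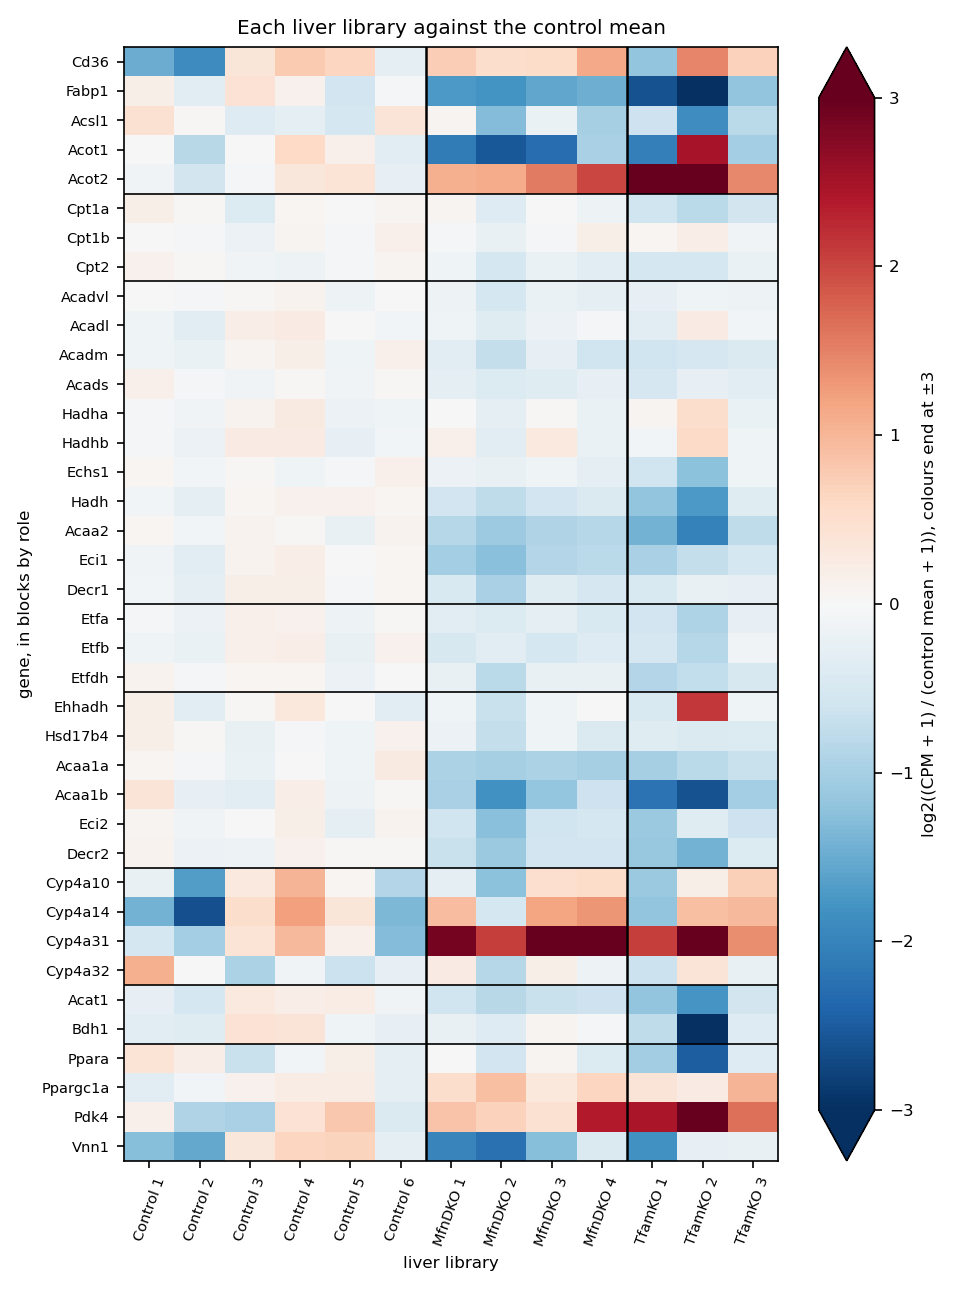
Log2 ratio of CPM plus 1 to the control mean plus 1 for the 38 genes (rows, in blocks by role) in each of the 13 livers (columns); colours end at 3 in either direction. Tfam KO replicate 2 has the deepest colours, with Ehhadh and Acot1 high in it alone among the knockouts.

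The Mfn DKO and Tfam KO livers were compared with the same 6 controls, so likeness between the 2 sets of changes is no independent evidence. Compared directly, none of the 38 genes differed between Tfam KO and Mfn DKO at an adjusted p of 0.05, where 0.106% of all genes were called higher and 0.188% lower in Tfam KO. At an unadjusted p under 0.05 there were 6 of the 38, and 3480 of all 17024 genes. The log2 difference, Tfam KO minus Mfn DKO, was 2.95 for Acot2 (95% interval 1.64 to 4.25, adjusted p 0.0858), 3.81 for Pdk4 (1.84 to 5.78, adjusted p 0.101) and 3.003 for Acot1 (1.37 to 4.63, adjusted p 0.101). For Cpt1a it was -0.55 (-0.89 to -0.22, adjusted p 0.118). By DESeq2 these 4 genes passed, and without Tfam KO replicate 3 edgeR called 13 genes. The Acot1 difference came from Tfam KO replicate 2. As log2 ratio of CPM plus 1 to the control mean plus 1, Acot1 was 2.47 in that library. It was -2.05 and -1.01 in Tfam KO replicates 1 and 3, within the Mfn DKO range of -2.54 to -0.98.

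Genes around the pathway were read from 3 further lists. Of 35 tested PPAR alpha targets outside the 38, 9 fell and 2 rose in Mfn DKO livers (4.64% and 5.23% over all genes), and 10 fell and 7 rose in Tfam KO livers (11.3% and 18.1%). Fgf21, a hormone secreted by the liver, had means of 2.32 CPM in control, 66.2 CPM in Mfn DKO and 40.9 CPM in Tfam KO livers (SD 1.83, 23.0 and 24.1, n = 6, 4 and 3), with log2 fold changes of 4.82 and 4.13 and adjusted p of 0.00064 and 0.000996. Creb3l3, a hepatic transcription factor that acts with PPAR alpha, fell by 0.74 and 1.01 (adjusted p 0.00149 and 0.00032). Retsat, a retinol saturase, fell by 1.85 in Mfn DKO livers (adjusted p 0.000716), and Acsl4, a synthetase for arachidonate, rose by 2.24 in Tfam KO livers (adjusted p 0.00139). Of 18 receptors and cofactors none was called in Mfn DKO livers, where 3 had an unadjusted p under 0.05 (4704 of 17024 over all genes). In Tfam KO livers 1 was called: Sirt3, a mitochondrial deacetylase, fell by 1.24 (adjusted p 0.00447). Of 9 genes of malonyl-CoA and ketone metabolism 2 rose in Mfn DKO livers, Oxct1 and Slc16a6. In Tfam KO livers 3 rose and 2 fell, with Slc16a1, a lactate and ketone transporter, higher by 1.77 (adjusted p 0.00174) and Mlycd, which removes malonyl-CoA, lower by 0.58 (adjusted p 0.00329). Mlycd is also counted among the PPAR alpha targets.

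In islets labelled Tfam KO, Hadh fell while Ppara, its coactivator gene Ppargc1a and Acat1 rose. With sex as a term, 5 of the 34 genes that passed the filter rose and 2 fell, against 11.6% higher and 9.29% lower over all 19752 genes. In both directions these counts lay near the share over all genes, so they set the 34 little apart. The median log2 fold change of the 34 was 0.05, against -0.01 over all genes. Cyp4a10, Cyp4a14, Cyp4a31 and Fabp1 did not pass the filter on low counts.

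Hadh (chromosome 3, 131233419 to 131272101, minus strand) was 814, 869, 600.1, 821 and 732 CPM in control females and 805, 864 and 814 CPM in control males. In Tfam KO it was 560.0, 604, 577 and 572 CPM in females and 527 and 563 CPM in males. The groups touched at 1 control female and 1 KO female and were otherwise apart. The log2 fold change of Hadh was -0.48 (SE 0.08, adjusted p 0.000373). Echs1, the hydratase before it in the cycle, rose by 0.26 (SE 0.08, adjusted p 0.0316), a call lost in 8 of 14 fits that left out 1 library. Hadha and Cpt2 gave 0.00 and 0.01, with 95% intervals of -0.09 to 0.09 and -0.14 to 0.16.

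Acat1 (chromosome 9, 53580522 to 53610382, minus strand) was 103, 102, 127, 139 and 110.0 CPM in control females, 95.9, 98.8 and 104 CPM in control males, 162, 133, 145 and 152 CPM in KO females and 159 and 164 CPM in KO males. The highest control female exceeded the lowest KO female, and the males did not overlap (log2 fold change 0.47, SE 0.08, adjusted p 0.000801). Bdh1 fell by 0.53 (SE 0.18, adjusted p 0.046), a call lost in 10 of 14 fits that left out 1 library. Acot2 was 7.57, 8.28, 8.59, 9.24 and 7.56 CPM in control females, 5.45, 7.93 and 9.42 CPM in control males, 12.6, 10.04, 10.01 and 9.70 CPM in KO females and 11.04 and 10.6 CPM in KO males. Every KO value was above every control, and the log2 fold change was 0.41 (SE 0.11, adjusted p 0.0125).

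Ppara was low in all islets: 0.58, 0.98, 0.42, 0.31 and 0.64 CPM in control females, 1.005, 0.70 and 0.62 CPM in control males, 1.68, 2.39, 1.72 and 1.82 CPM in KO females and 1.25 and 0.83 CPM in KO males. The females were apart and the males overlapped. For Ppara the log2 fold change was 1.26 (SE 0.28, adjusted p 0.00366). Ppargc1a (chromosome 5, 51454250 to 51567726, minus strand) was 1.99, 2.01, 1.59, 1.93 and 1.60 CPM in control females, 2.67, 2.67 and 2.11 CPM in control males, 3.57, 1.78, 2.81 and 3.31 CPM in KO females and 4.21 and 3.92 CPM in KO males. A single KO female lay among the controls (log2 fold change 0.67, SE 0.15, adjusted p 0.0034).

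By sex, 4 genes were called higher and 1 lower in females (6.67% and 4.17% of all genes), and 1 higher and 1 lower in males (5.24% and 3.69%), where only 2 KO libraries entered. Hadh and Acat1 passed in both sexes, with log2 fold changes of -0.41 and 0.35 in females and -0.60 and 0.70 in males. The Acat1 call in females was lost in 6 of 14 fits that left out 1 library and with only the compared groups, and the Hadh call in males without either KO male. Ppara gave 1.69 (adjusted p 0.00131) in females and 0.43 (adjusted p 0.547) in males, and Acsl1 0.46 (adjusted p 0.00669) and -0.05 (adjusted p 0.858). The interaction of genotype with sex called none of the 34, and 0% of all genes in either direction. At an unadjusted p under 0.05 it held 7 of the 34, and 1230 of all 19752 genes. The 7 were led by Acsl1 at -0.51 (95% interval -0.84 to -0.19, adjusted p 0.679) and included Ppara at -1.26 (-2.22 to -0.31, adjusted p 0.702), male minus female. All 10 acinar markers were on the higher side of this interaction (median 2.26), 9 of them at an unadjusted p under 0.05 and none called. Their summed level was 3642 to 18430 CPM in KO males against 2230 to 6682 CPM in control males. In females it was 1593 to 4075 CPM in KO against 1041 to 10260 CPM. The part of this shift in the interaction was not tested.

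All 8 beta cell markers fell in Tfam KO islets, and their summed level was 105100 to 140800 CPM in KO females against 187700 to 293800 CPM in control females. In males it was 127900 to 128500 CPM against 250300 to 265000 CPM. The summed level of 6 fibroblast and stellate markers was 48.2 to 49.8 CPM in KO males against 11.7 to 24.2 CPM in control males, and 2 of 5 tested rose in males. That of 8 macrophage markers was 88.7 to 93.8 CPM in KO males against 26.7 to 44.1 CPM in control males, and 2 of 7 tested rose. The part of these shifts in the fall of Hadh and in the rises was not tested. Of 30 tested PPAR alpha targets outside the 38, 9 rose and 1 fell (11.6% and 9.29% over all genes), led by Txnip, Acsl4 and Acsl5 (log2 fold changes 2.08, 0.76 and 0.54, adjusted p 4.85e-07, 6.67e-06 and 8.37e-06). Of 18 receptors and cofactors 3 rose. Pparg, the fat cell relative of Ppara, rose by 1.48 (adjusted p 2.24e-09), from 4.93 to 5.77 CPM in control females to 15.3 to 17.2 CPM in KO females. Lpin1, a coactivator of PPAR alpha, rose by 0.73, and Nrip1, a corepressor, by 0.54. Slc16a6, a ketone body transporter, rose by 0.92 (adjusted p 1.16e-06) and was the 1 of 8 tested genes of malonyl-CoA and ketone metabolism called.

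**Figure D5:**
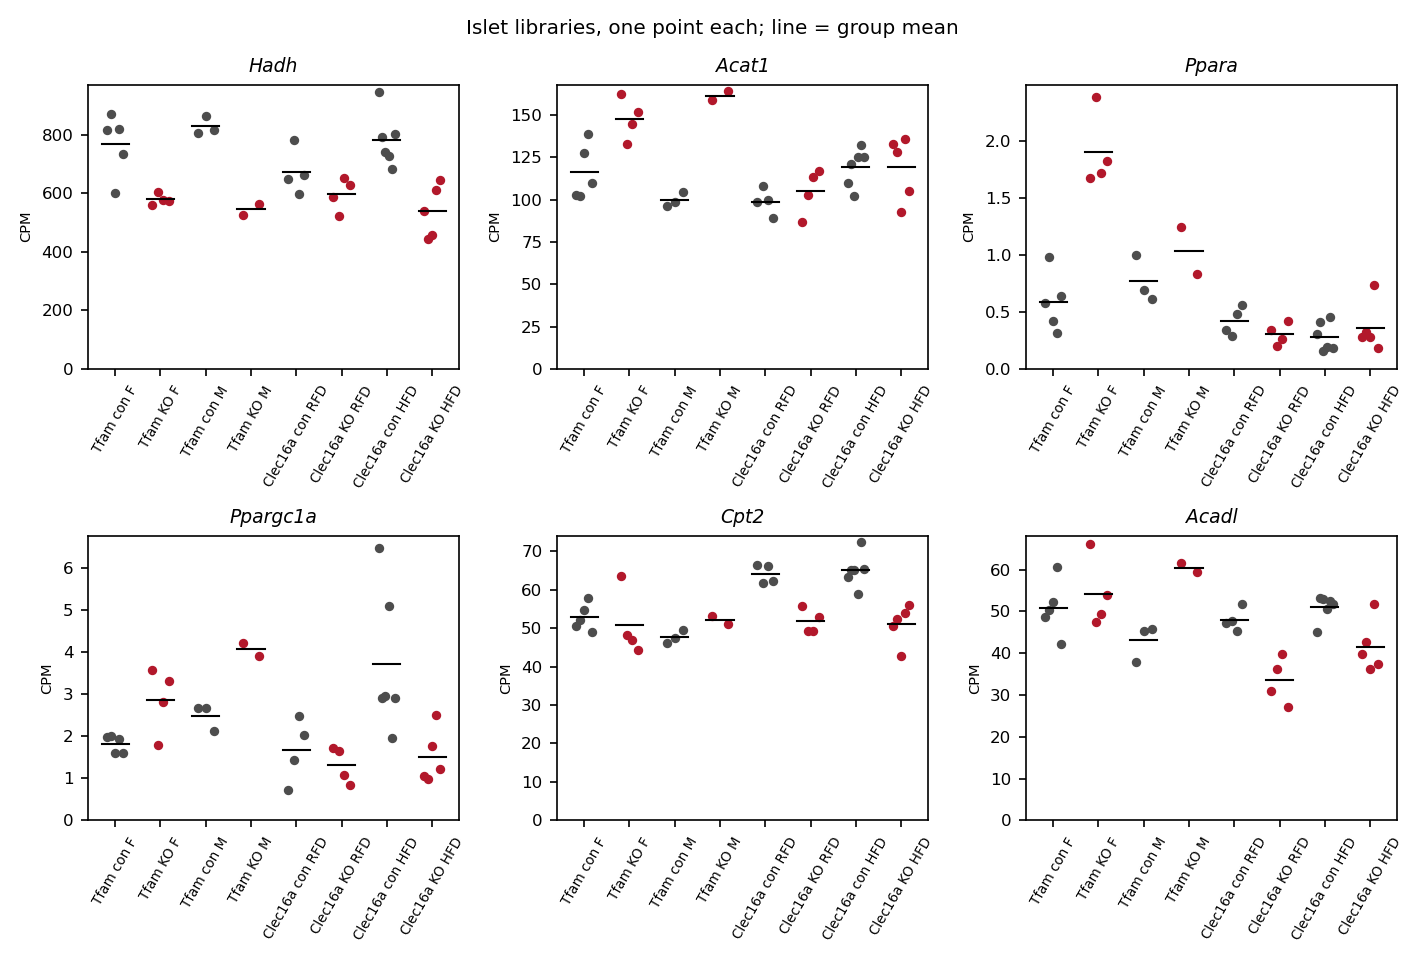
CPM of 6 genes in each islet library of the Tfam and Clec16a experiments, controls in grey and libraries labelled KO in red, with group means as lines and each axis starting at 0. Hadh is lower in Tfam KO islets of both sexes and in HFD islets labelled Clec16a KO, Ppara is higher in Tfam KO females, and Cpt2 is lower in islets labelled Clec16a KO on both diets.

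In islets labelled Clec16a KO on RFD, 3 genes of the mitochondrial path fell and none rose, against 3.54% lower and 3.99% higher over all 17254 genes. The median log2 fold change of the 34 genes tested was -0.15, against 0.00 over all genes. The 4 Cyp4a genes did not pass the filter on low counts. Acadl (chromosome 1, 66830839 to 66863277, minus strand), the long-chain acyl-CoA dehydrogenase, was 47.2, 47.7, 45.3 and 51.8 CPM in controls and 30.9, 36.2, 39.8 and 27.1 CPM in the libraries labelled KO. The groups did not overlap (log2 fold change -0.52, SE 0.12, adjusted p 0.0117). Cpt2 (chromosome 4, 107903981 to 107923610, minus strand), which returns fatty acids to coenzyme A inside mitochondria, was 66.4, 61.8, 66.1 and 62.3 CPM in controls and 55.8, 49.2, 49.2 and 52.9 CPM in the libraries labelled KO, again apart (log2 fold change -0.31, SE 0.09, adjusted p 0.0328). Acadm, the medium-chain dehydrogenase, was 24.6, 23.0, 23.2 and 24.5 CPM in controls and 16.7, 21.1, 17.9 and 18.5 CPM in the libraries labelled KO (log2 fold change -0.36, SE 0.11, adjusted p 0.0435). The calls of Cpt2 and Acadm were lost in 6 and 10 of 19 fits that left out 1 library, while that of Acadl held in all 19. The counts were 1 with no filter on low counts and 5 by DESeq2.

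On HFD, 7 genes were called lower and none higher in the libraries labelled Clec16a KO, where 3.95% of all genes were called lower and 5.62% higher. The median log2 fold change was -0.13, against 0.00 over all genes. Cpt2 ranged from 59 to 72.5 CPM (median 65) in the 6 controls and was 50.5, 52.3, 42.8, 53.8 and 55.9 CPM in the libraries labelled KO. Hadh ranged from 681 to 946 CPM (median 766) in controls and was 539.7, 442, 456, 612 and 644 CPM in the libraries labelled KO. For both genes all values labelled KO lay below all controls, with log2 fold changes of -0.35 (SE 0.07, adjusted p 0.0056) and -0.54 (SE 0.11, adjusted p 0.00573). These 2 calls held in all 19 fits that left out 1 library.

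Ppargc1a ranged from 1.95 to 6.47 CPM (median 2.93) in HFD controls and was 1.06, 0.98, 1.77, 2.51 and 1.22 CPM in the libraries labelled KO, with 1 of them inside the control range (log2 fold change -1.26, SE 0.35, adjusted p 0.0271). Bdh1 ranged from 9.2 to 11.3 CPM (median 9.99) in controls and was 6.86, 6.55, 6.76, 10.2 and 7.29 CPM in the libraries labelled KO, where replicate 4 lay among the controls (log2 fold change -0.42, adjusted p 0.0276). Decr1 ranged from 19.3 to 27.7 CPM (median 20) in controls and was 15.6, 13.1, 14.6, 21.9 and 14.4 CPM in the libraries labelled KO, with replicate 4 again inside (log2 fold change -0.46, adjusted p 0.0289). Acsl1 fell by 0.40 (adjusted p 0.0406). Replicate 4 of the HFD libraries labelled KO lay nearest the controls for several genes: without it 12 of the 34 were called, all lower, and without any 1 of the other four libraries labelled KO 2 were. When only the 2 HFD groups were fitted, 4 were called.

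The seventh call, Fabp1, came from 3 control libraries. Its counts were 79, 1292, 0, 0, 541 and 0 in the 6 HFD controls and 0 in all 5 libraries labelled KO, where a count of 0 allows up to 0.0676 to 0.185 CPM. Its intestinal relative Fabp2, chosen after its values were seen, had 81, 1109, 1, 0, 587 and 0 counts in the same 6 controls. On RFD a library labelled KO held 5.94 CPM of Fabp1 and 8.40 CPM of Fabp2. The call was lost in 7 of 19 fits that left out 1 library, among them 2 of these controls, and no fold is given.

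The called genes were also read by sequencing lane, which the deposited file names give as 7 or 8. For every gene called on either diet the mean was lower in the libraries labelled KO within both lanes. The genes were called on these same libraries, so this agreement is no independent evidence. On the log2(CPM + 1) scale, KO minus control was -0.28 and -0.38 for Cpt2 on RFD and -0.48 and -0.56 for Hadh on HFD. On RFD lane 8 held 1 library labelled KO. The summed level of 7 endothelial markers was 503.9 to 630.7 CPM in RFD libraries labelled KO against 303.1 to 332.2 CPM in their controls, and 332.1 to 601.3 CPM (median 580.9) against 283.1 to 376.8 CPM (median 338.4) on HFD. The HFD groups overlapped: replicate 4 labelled KO held 92.9 CPM of Kdr and 45.97 CPM of Pecam1, both endothelial markers and both inside the control range. On both diets 5 of the 7 rose, and 2 of 8 beta cell markers fell, whose summed level was 136800 to 247700 CPM in HFD libraries labelled KO and 231300 to 337000 CPM in their controls. The part of these shifts in the results was not tested.

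The change of diet moved none of the 34 genes past the threshold. HFD against RFD called none of them in controls, where 0.0058% of all genes were called higher and 0.0348% lower, and none in the libraries labelled KO, where 0% were called higher and 0.0116% lower. At an unadjusted p under 0.05 all 17254 genes held 973 in controls and 946 in the libraries labelled KO, and the 34 held 4 in each. Among them Cpt1a, the entry step of the pathway, had log2 differences of 0.30 (95% interval 0.06 to 0.54, adjusted p 0.778) and 0.48 (0.23 to 0.73, adjusted p 0.406), HFD minus RFD. By DESeq2 no gene was called in controls and 1 in the libraries labelled KO. Cell type markers also differed by diet, though none of those of acinar or alpha cells was called. All 10 acinar markers were higher on HFD, with median log2 differences of 1.19 in controls and 1.29 in the libraries labelled KO. Of these, 8 had an unadjusted p under 0.05 in each. All 5 alpha cell markers were lower at that level in each. The part of these shifts in the differences by diet was not tested. The interaction of genotype with diet called 0% of all genes in either direction and none of the 34 by edgeR. It held 3 of the 34 at an unadjusted p under 0.05, and 406 of all 17254 genes. By DESeq2 1 of the 34 was called. For Hadh, called on HFD and not on RFD (log2 fold change -0.17, adjusted p 0.473), the difference between diets was -0.36 (95% interval -0.70 to -0.02, adjusted p 1).

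Of 30 tested PPAR alpha targets outside the 38, 3 rose and 1 fell on RFD (3.99% and 3.54% over all genes), and 5 rose and 2 fell on HFD (5.62% and 3.95%), reading those labelled Clec16a KO against controls. On RFD they were led by Fabp3, a fatty acid binding protein of muscle and heart, and Mgll, a monoacylglycerol lipase, which rose by 1.22 and 0.80 (adjusted p 0.0235 and 0.0266). Pex11a, which takes part in peroxisome division, fell by 0.39 on RFD (adjusted p 0.04) and by 0.53 on HFD (adjusted p 0.0026). Txnip, which restrains thioredoxin and glucose uptake, rose by 2.03 on HFD (adjusted p 0.00134), with 317 to 1940 CPM in the libraries labelled KO against 209 to 499 CPM in controls. Slc16a6 rose by 1.07 on RFD (adjusted p 0.0164) and by 0.93 on HFD (adjusted p 0.011). Of the 18 receptors and cofactors, Rxra, the partner of PPAR alpha on DNA, rose by 0.32 on RFD (adjusted p 0.0498). None was called on HFD, where 3 had an unadjusted p under 0.05 (4001 of 17254 over all genes).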

How the data were processed

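RNA of 46 mouse islet and liver libraries, read as pairs of 151 bases per the labels, was analysed from the deposited files. Per the submitters' processing notes the tools included STAR 2.6.1b, RSEM 1.3.1 and featureCounts and the build was GRCm38; which tool made which column is not given in the sources used here. The deposited raw counts per gene, whole numbers, were used for all tests. The authors' TPM was used for levels between genes and tissues. The deposited CPM equalled the count over the library total and was replaced by CPM on TMM-scaled library sizes. Of the identifiers 55141 of 55487 were in GENCODE M21, the source of gene positions.

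Each experiment was fitted alone with edgeR 4.0.16 in R 4.3.3: TMM, filterByExpr on the group, the quasi-likelihood F-test (two-sided) with p adjusted by Benjamini-Hochberg over every gene that passed the filter, called at 0.05. Groups had 1 mean each, except that the Tfam islets over both sexes had sex as a term. The SE is the size of the log2 fold change over the square root of F, and intervals are 1.96 SE either side. The procedure was tested on simulated data. The 38 genes and the other lists were chosen with earlier results of these data known. Per comparison and direction, values of every library are given for at most the 6 called genes with the smallest adjusted p, and at most 3 genes of another list are named. Lanes were read from file names. Alternatives were DESeq2 1.42.0 (test and size factors), other filters (none, or at least 10 counts in every sample), fewer libraries or groups, the replicate number as a block, and lane, sex-linked or acinar terms. A count of 0 was read as up to 3 counts, and such floors cover counting error only.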

Additional observations from a re-analysis of the deposited data

Results flagged for a closer look

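Single libraries lay apart from the rest of their group, by Dixon's 95% limit on log2(CPM + 1), in 5 of 67 checks. Each check took 1 called gene in 1 group of 4 to 10 libraries. Chance gives about 1 in 20 for independent checks, and these reuse the same libraries. Acot2 was 12.6 CPM in Tfam KO female replicate 1, against 9.70 to 10.04 CPM in the other three. Bdh1 was 10.2 CPM in HFD replicate 4 labelled Clec16a KO, against 6.55 to 7.29 CPM in the other four. Mfn DKO liver replicate 2 was low for the peroxisomal enzymes Eci2, at 118 CPM against 184 to 194 CPM, and Decr2, at 148 CPM against 202 to 215 CPM. Cpt1a was 380 CPM in control liver replicate 3, against 509.7 CPM or more in the other five controls. Groups of 3, among them the Tfam KO livers, were not examined this way.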

How the results depend on the processing

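No call changed direction under any alternative. The number of the 38 genes called moved by more than 1.5 times as follows. With DESeq2 it was 21 in Mfn DKO livers (10 by edgeR), 4 for Tfam KO against Mfn DKO livers (0), 4 in Tfam KO male islets (2), 5 in Clec16a islets on RFD (3), and 1 each for diet in the libraries labelled Clec16a KO and for the interaction with diet (0). With no filter on low counts it was 1 on RFD and 4 in Tfam KO males. With only the compared groups it was 22 in Mfn DKO livers, 4 on HFD (7), 3 in Tfam KO females (5) and 4 in males. Whether replicate numbers pair the libraries was not tested against differently numbered pairs. Residuals of same-numbered libraries correlated above 0.1 in 10 of 16, 4 of 25 and 5 of 10 pairs in the Tfam islets, Clec16a islets and livers. With the replicate block the count was 2 in Mfn DKO livers, 3 in Tfam KO livers (22), 3 on HFD and 5 in Tfam KO males. Leaving out 1 library gave 3 to 19 in Mfn DKO livers, 15 to 23 in Tfam KO livers, 0 to 13 between them (13 without Tfam KO replicate 3), 5 to 8 in Tfam KO islets, 3 to 6 in females, 1 to 3 in males, 1 to 5 on RFD, 2 to 12 on HFD, and 0 to 1 for diet in the libraries labelled Clec16a KO, and 0 in the other comparisons. The cause of these moves was not tested. Over single genes, the call was lost in 216 refits and kept in 986. Males with 2 KO and livers with 3 Tfam KO libraries limit every comparison that uses them.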
